A study of Mus musculus with 3 samples.

Results

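The D-type cyclins Ccnd1, Ccnd2 and Ccnd3 and their kinase partners Cdk4 and Cdk6 were compared between mouse neural stem cells whose RNA is labelled Dnmt3a knockout (KO) and wild type (WT). These 5 genes were taken with every non-control probe that the array files name for them, which gave 9 of the 41174 probes on the array. Ccnd2 and Cdk6 had 3 probes each, and Ccnd1, Ccnd3 and Cdk4 had 1 each. The Ccnd1 probe was spotted 10 times on every array and the other 8 probes once, so the 9 probes made 18 spots per array. All 9 passed the filter on dim probes, which required a probe to be well above background in 1 channel on all 3 arrays.

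The study hybridised 3 two-colour Agilent arrays. On each, RNA of neural stem cells of genotype Dnmt3a-/- carried Cy3 and RNA of wildtype neural stem cells carried Cy5, and the arrays were labelled as 3 biological replicates. Both cell types had been made from mouse embryonic stem cells, through 7 days in serum-free N2B27 medium and a neurosphere stage, and both were kept in EGF and bFGF at 10 ng/ml. The labels do not say whether each genotype was 1 line or several, nor whether the replicates were separate derivations, so the p-values reflect the spread of these samples alone. The dye of each genotype was the same on the 3 arrays, so dye bias of a probe cannot be told apart from genotype.

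D-type cyclins carry mitogen signals into the cell cycle. They are made when growth factors such as EGF and FGF are present, bind Cdk4 or Cdk6, and the active kinase phosphorylates the retinoblastoma protein, which then releases E2F factors that switch on genes of DNA replication. Ink4 proteins block Cdk4 and Cdk6, and Cip/Kip proteins bind the cyclin complexes. In the developing brain cyclin D1 and cyclin D2 are the D-type cyclins of neural progenitors, and Cdk4 and Cdk6 with cyclin D1 are known to shorten the G1 phase of these cells and to favour their division over differentiation.

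The array probes are 60 bases long, and 4 of the member probes, taken as coding, are shown. Each has at least 1 reading frame free of stop codons. Ccnd3 A_51_P238448 and Cdk6 A_51_P489779 also have such a frame and are not shown. Where the probes lie in their transcripts was not looked up. Their positions are given as the array files give them, on mouse build mm7. The capitals in the Cdk4 probe mark codons of the DFG motif, the part of the kinase fold that holds the metal ion of ATP. The first Ccnd2 probe lies at chr6:127163669-127163728 and the second at chr6:127173178-127173237, both on the minus strand, 9509 bases apart. The Cdk4 probe lies at chr10:126562389-126562448 on the plus strand. The Cdk6 probe is listed from 3479226 to 3521510 on the plus strand of chromosome 5, a span of 42285 bases for its 60 bases, so it joins exons on both sides of an intron.
Ccnd2 A_51_P433228: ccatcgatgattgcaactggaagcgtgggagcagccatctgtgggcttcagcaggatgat
Ccnd2 A_52_P53906: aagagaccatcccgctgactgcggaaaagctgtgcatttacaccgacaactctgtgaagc
Cdk4 A_51_P437027: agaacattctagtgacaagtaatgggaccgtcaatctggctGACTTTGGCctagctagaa
Cdk6 A_52_P417489: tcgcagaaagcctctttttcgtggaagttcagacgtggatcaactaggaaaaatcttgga
Their GC content was 55.0%, 51.7%, 45% and 43.3% in this order. The Ccnd1 probe is listed at 7568179 to 7568238 of chr7_random, a set of unplaced pieces of chromosome 7, on the plus strand. The Ccnd3 probe is at chr17:45735858-45735917 on the plus strand. The third Ccnd2 probe, A_52_P514391, is at chr6:127154070-127154129 on the minus strand, 9599 bases from A_51_P433228. The other Cdk6 probes are A_51_P388310 at chr5:3527675-3527734 and A_51_P489779 at chr5:3535293-3535352, both on the plus strand. A_51_P489779 was designed on the cDNA clone AK030810, which the array files describe as unclassifiable, so its signal is named Cdk6 only by the array's own annotation.

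Ccnd1 was higher in the RNA labelled KO by 2.40-fold, a larger difference than that of any other member. Cdk4 was higher by 1.13-fold and 1 Cdk6 probe by 1.15-fold, 1 Ccnd2 probe was lower by 1.09-fold, and Ccnd3 was not past the threshold. Thus 3 of the 9 member probes were past the threshold and higher, 1 was past it and lower, and 5 were not past it (limma, Benjamini-Hochberg adjusted p under 0.05 over 26627 tested probes). Calls were frequent on these arrays, with 44.3% of all tested probes past the threshold, 20.7% higher and 23.6% lower, so 4 of 9 is close to the share among all probes. What sets Ccnd1 apart is size. The median absolute log2 ratio over all tested probes was 0.093, and only 42 of the 26627 probes, Ccnd1 included, had a ratio at least as high as that of Ccnd1, as did 38 of 18033 genes when each was read by its brightest probe.

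**Figure D1:**
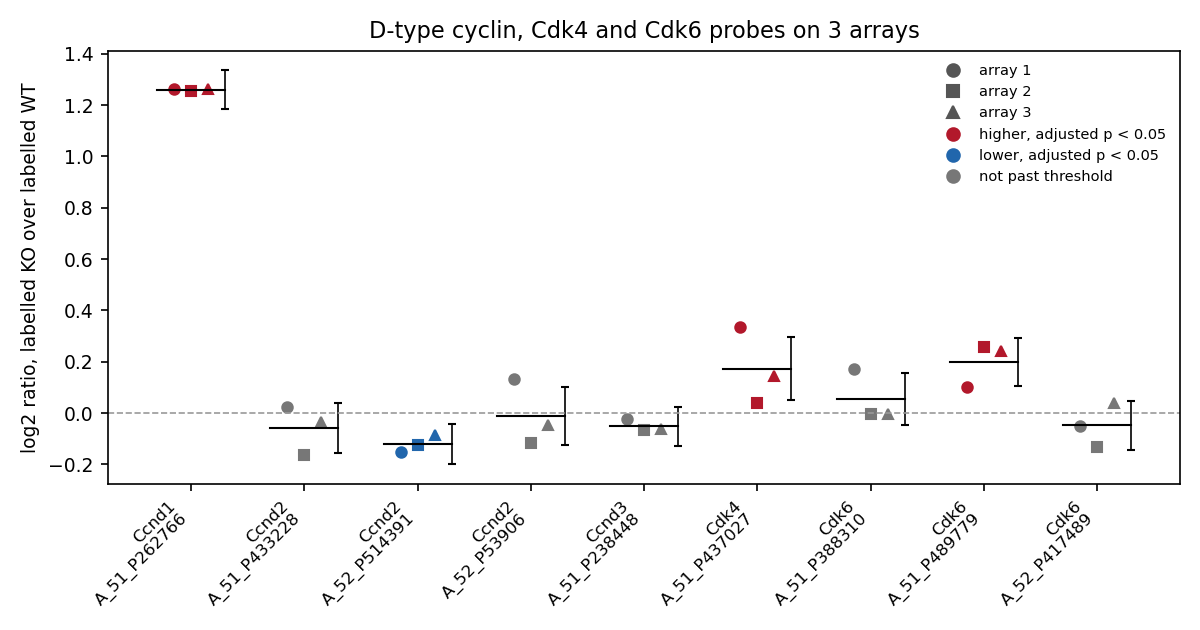
Ratio of labelled KO to labelled WT on the log2 scale (vertical axis) for each of the 9 member probes, with 1 symbol per array, the mean as a bar and its 95% confidence interval from limma beside it. The 3 Ccnd1 points lie on each other at 1.26, while all other points lie between -0.16 and 0.34.

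Dnmt3a itself went against its label, so directions below follow the labels of the channels and not a verified genotype. Its brightest probe had log2 ratios of 1.07, 0.97 and 0.92 on the 3 arrays, or 0.99 ± 0.08 (SD, n = 3; limma, adjusted p = 6.3e-07), and the other Dnmt3a probes were higher as well, at 0.76 ± 0.04 and 0.61 ± 0.03. The deleted part of Dnmt3a is not stated in the labels, and a probe outside it checks nothing. If the channels were exchanged, every sign reported here would turn.

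The arrays resembled each other, with correlations of 0.91 to 0.93 between arrays over the log2 ratios of the tested probes, which are not independent replicates. Median spot signals were 75.7 to 88.1 in the channel labelled KO and 92.1 to 105 in the channel labelled WT, over local backgrounds of 39.5 to 43. All 14 neural stem cell markers of a list that includes Nes, Sox2 and Pax6 were well above background in both channels, with 2 higher, 9 lower and 3 not past the threshold in the RNA labelled KO. Nes and Sox2 were among the lower ones and Pax6 among the higher ones. Pax6 was dim, at mean log2 levels of 6.63 in labelled KO and 6.39 in labelled WT, against 12.22 and 12.34 for Nes. The levels of the 14 summed to 57300 to 58700 in labelled KO and 68100 to 71200 in labelled WT. Most of this sum came from Vim, at log2 levels of 15.04 in labelled KO and 15.25 in labelled WT, and Fabp7, at 13.93 and 14.19. Of the 8 pluripotency markers 5 were tested, 2 were higher and 3 not past the threshold, with a summed level of 1580 to 1660 in labelled KO and 1180 to 1250 in labelled WT, and Pou5f1, Nanog and Zfp42 did not pass the filter. The higher ones were Klf4, at 0.59 ± 0.04 by far the brightest of the 5, and Dppa5a, at 0.17 ± 0.06, both named after their values were seen. Fibroblast markers summed to 152000 to 156000 in labelled KO and 202000 to 221000 in labelled WT, with 6 of 7 lower. Of 7 neuron, 5 astrocyte and 6 oligodendrocyte lineage markers 5, 4 and 5 were tested, and 2, 1 and 2 were lower and 0 higher. The oligodendrocyte lineage markers summed to 1670 to 1710 in labelled KO and 2530 to 2600 in labelled WT, mostly from Pdgfra, at log2 levels of 10.27 and 10.86. Of 5 blood or microglia markers 2 were tested, and 1 was higher. The part of these differences in the cyclin and kinase values was not tested. In RNA of whole cultures, fewer cells of a type and less RNA per cell cannot be told apart.

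Ccnd1, which encodes cyclin D1, the D-type cyclin that responds most directly to mitogens, had log2 intensities of 13.20, 13.22 and 13.19 in labelled KO, against 11.94, 11.97 and 11.93 in labelled WT. All 3 labelled KO values lay above all 3 labelled WT values, more than a full log2 unit apart. The log2 ratios were 1.26 on each of the 3 arrays, with a mean of 1.26 ± 0.0039 (SD, n = 3; 95% interval 1.18 to 1.34; limma, adjusted p = 7.8e-08). Channels that do not overlap were found for 43% of all tested probes, so the separation by itself is common here, and its width is not: the absolute ratio of Ccnd1 lies at percentile 99.6 of all tested probes.

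The mean of 10 spots stands behind each Ccnd1 value. Before normalization these spots averaged 6542, 8702 and 6797 in labelled KO and 6139, 5150 and 4368 in labelled WT. After subtraction of the local background the log2 ratio was 0.10, 0.77 and 0.65 on arrays 1, 2 and 3. The channel labelled WT was the brighter one for most probes: the median of 1047 tested probes within 0.5 log2 units of the same intensity was -1.17, -0.49 and -0.61. Thus Ccnd1 stood 1.27, 1.26 and 1.26 above probes of like brightness and above 99.9% of them on every array, while its distance from 0 depends on the normalization that brings those probes to 0. With each array only centred on its median, the Ccnd1 ratio was 0.74 (adjusted p = 0.0018), or 0.96 above the median of all tested probes under that setting.

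**Figure D2:**
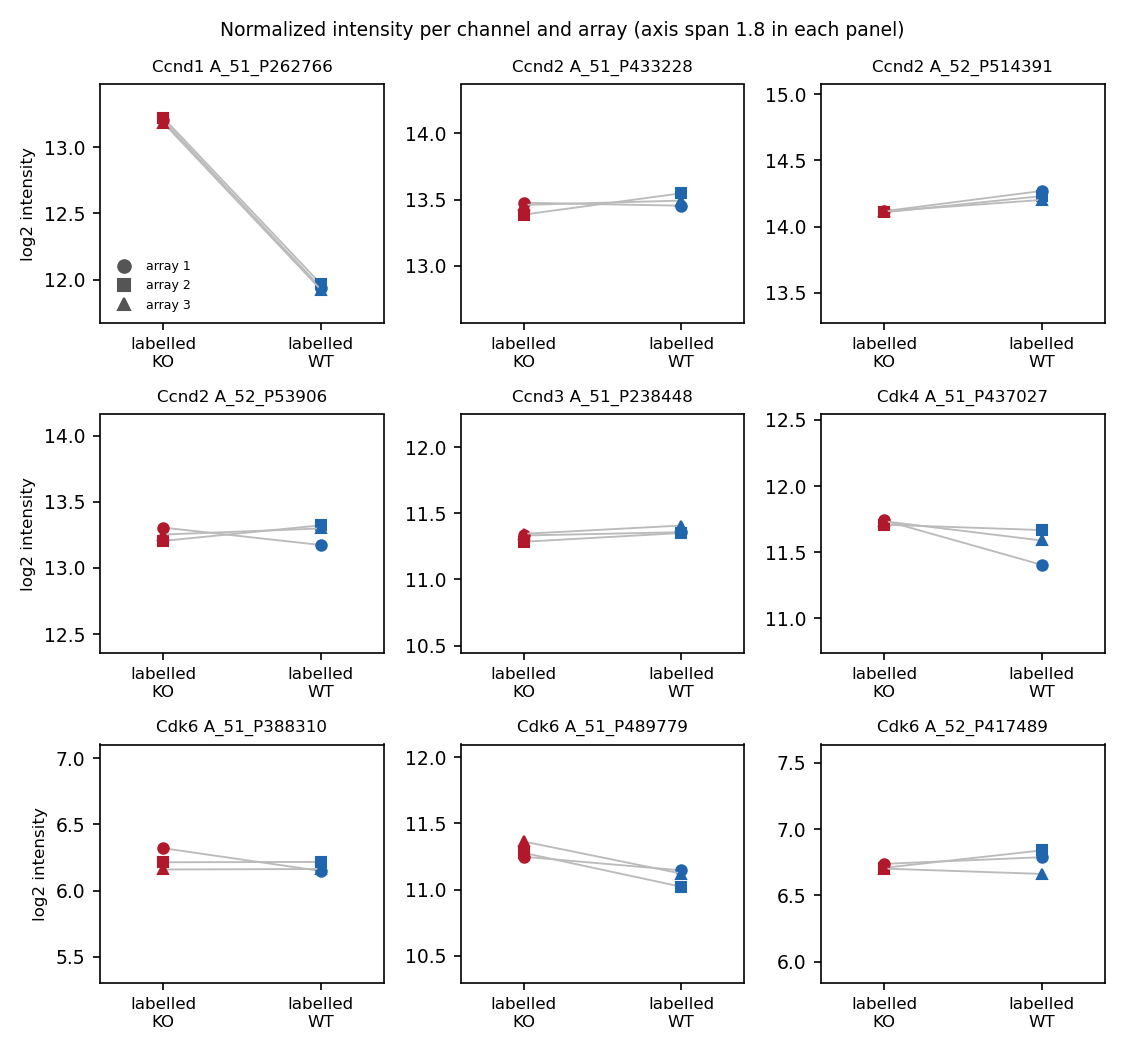
Normalized log2 intensity (vertical axis, the same span of 1.8 units in each panel) in the channel labelled KO on the left and the channel labelled WT on the right, with a line joining the channels of 1 array. The Ccnd1 lines drop steeply and in parallel, and the lines of the other 8 probes are flatter. Those of Cdk4 and Cdk6 A_51_P489779 drop on every array, by up to 0.34 and 0.26. Those of Ccnd2 A_52_P514391 and Ccnd3 rise slightly on every array, and the rest differ in direction between arrays.

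The 3 Ccnd1 values lay close together. Their SD between arrays was 0.0039, against a median of 0.040 over 189 tested probes that were also spotted 10 times. Within an array the Ccnd1 spots ranged from 1.09 to 1.36 on array 1, from 1.15 to 1.35 on array 2 and from 1.13 to 1.36 on array 3. Every spot on every array was therefore above 1 on the log2 scale.

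The Ccnd1 spots followed their place on the slide. Averaged over the arrays, the ratio was 1.12 in row 11 and 1.17 in row 69. It was 1.22 to 1.26 in rows 164 to 201, and 1.32 to 1.35 in rows 398 to 510, of 532 rows. The 10 spots had the same order on the 3 arrays to a large degree, with correlations of 0.94 to 0.97 between arrays, given as a description because the arrays share a layout. Other probes spotted 10 times shared the pattern. The median deviation of a spot from its probe's mean was -0.063, -0.068 and -0.063 on arrays 1, 2 and 3 in the first of 5 equal blocks of rows, and 0.042, 0.053 and 0.048 in the last block. In the brightest of 3 equal groups of these probes it was -0.090 to -0.082 in the first block and 0.058 to 0.068 in the last, and in the dimmest group it was -0.031 to -0.0039 and -0.010 to 0.0054. A shift of this size is small beside Ccnd1. At the single spot of Ccnd2 A_52_P514391, in row 4, the trend fitted to these probes was -0.077 to -0.065, and at that of Ccnd3, in row 304, it was 0.018 to 0.023.

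**Figure D3:**
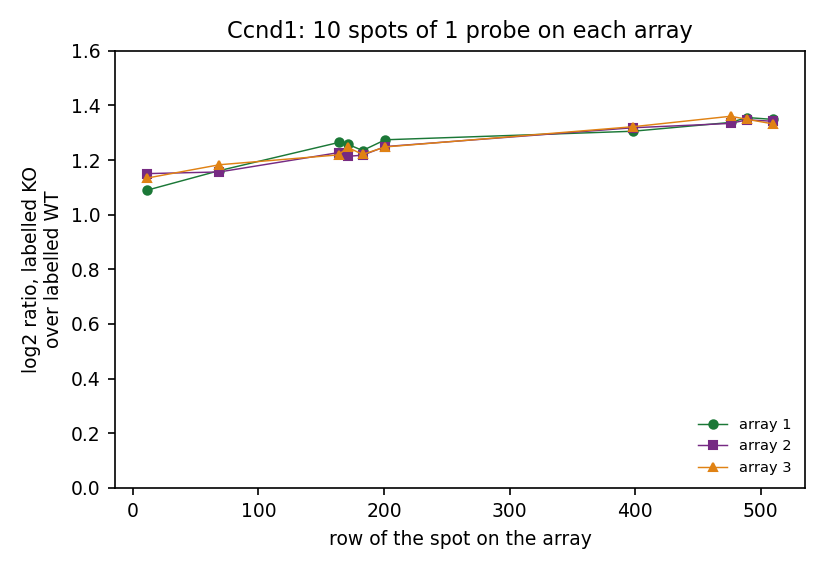
Ratio of labelled KO to labelled WT on the log2 scale (vertical axis, from 0) of each of the 10 Ccnd1 spots against its row on the array (horizontal axis), with 1 line per array. The lowest ratios, 1.09 to 1.15, are at row 11 and the highest, 1.35 to 1.36, at rows 476 and 489, on all 3 arrays.

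Ccnd2, which encodes cyclin D2, the D-type cyclin of cycling progenitors in the developing cortex and cerebellum, differed little between the RNAs after loess normalization. Its brightest probe, A_52_P514391, had log2 intensities of 14.12, 14.11 and 14.11 in labelled KO and 14.27, 14.23 and 14.20 in labelled WT. All labelled KO values lay below all labelled WT values. The log2 ratios were -0.15, -0.12 and -0.09, with a mean of -0.12 ± 0.03 (SD, n = 3; 95% interval -0.20 to -0.042; limma, adjusted p = 0.021). The probe is spotted once, in row 4, where bright probes with 10 spots read low. With the row trend of those probes removed the ratio was -0.049 (adjusted p = 0.27), with the scanner's processed signals 0.037 (adjusted p = 0.50) and 0.033 in the authors' deposited table (adjusted p = 0.56), and no array could be left out without losing the call (adjusted p = 0.058 to 0.073).

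The other Ccnd2 probes, taken as coding, did not pass the threshold. A_51_P433228 had log2 intensities of 13.48, 13.39 and 13.46 in labelled KO and 13.45, 13.55 and 13.49 in labelled WT. A_52_P53906 had 13.30, 13.20 and 13.25 in labelled KO and 13.17, 13.32 and 13.30 in labelled WT. For both probes the channels overlapped, and array 1 pointed up while arrays 2 and 3 pointed down. Their mean log2 ratios were -0.057 ± 0.09 (95% interval -0.15 to 0.041, adjusted p = 0.31) and -0.011 ± 0.13 (95% interval -0.12 to 0.10, adjusted p = 0.88). The intervals of the 3 Ccnd2 probes together ran from -0.20 to 0.10, all far below that of Ccnd1. With median centring all 3 were lower and past the threshold (limma, adjusted p = 0.0019 to 0.0027). A_52_P514391 was then at -0.71, A_51_P433228 at -0.61 and A_52_P53906 at -0.56. Relative to the median of all tested probes these were -0.49, -0.40 and -0.34. Before normalization A_52_P514391 was at -0.13, -0.09 and -0.06 relative to the median of 336 probes of like intensity.

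Ccnd3, which encodes cyclin D3, the member of the family best known from blood and muscle, had log2 intensities of 11.33, 11.28 and 11.34 in labelled KO and 11.36, 11.35 and 11.41 in labelled WT. The labelled KO values were the lower ones on every array and the channels did not overlap, though by less than 0.01 between the nearest values. The mean log2 ratio was -0.051 ± 0.023 (SD, n = 3; 95% interval -0.13 to 0.026; limma, adjusted p = 0.25). The threshold was passed when the background model was fitted on all spots, at -0.065 (adjusted p = 0.039), and with median centring, at -0.52 (adjusted p = 0.0036), where the median of all tested probes was itself -0.22. Before normalization the Ccnd3 ratio was -0.02, -0.07 and -0.06 relative to the median of 1853 probes of like intensity on arrays 1, 2 and 3. Those probes had medians of -1.12, -0.46 and -0.59 before normalization, and their ratio with median centring was not computed.

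Set against each other within each array, the ratio of Ccnd1 exceeded that of Ccnd2 by 1.42, 1.38 and 1.35, a mean of 1.38 ± 0.034 (SD, n = 3), or 2.60-fold. It exceeded that of Ccnd3 by 1.31 ± 0.020. An exact two-sided sign-flip permutation test over 3 arrays cannot give a p below 0.25, and it gave 0.25 for both pairs (0.333 adjusted over the 4 pairs compared). Over the 11 alternatives in which they were computed these differences were 1.22 to 1.45 and 1.26 to 1.34. The ratio of Ccnd2 was below that of Ccnd3 by 0.13, 0.056 and 0.024, a mean of -0.069 ± 0.054 with an exact permutation p of 0.25, and this order turned under 3 alternatives.

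Cdk4 encodes the first of the kinases that D-type cyclins activate. Its log2 intensities were 11.74, 11.71 and 11.73 in labelled KO, against 11.40, 11.67 and 11.59 in labelled WT. The labelled KO values were above the labelled WT values throughout and nearly equal to each other, and the spread came from the channel labelled WT, which was lowest on array 1. The log2 ratios were 0.34, 0.04 and 0.15, with a mean of 0.17 ± 0.15 (SD, n = 3; 95% interval 0.049 to 0.30; limma, adjusted p = 0.031). Without array 1 the ratio was 0.093 (adjusted p = 0.12) and without array 3 it was 0.19 (adjusted p = 0.073), and 4 other settings of background and scaling also lost the call (adjusted p = 0.080 to 0.18). With median centring it was -0.31 (adjusted p = 0.0097), or -0.087 relative to the median of all tested probes. With the scanner's processed signals and in the authors' deposited table it was 0.20 and 0.19, and before normalization Cdk4 stood 0.34, 0.03 and 0.14 above the median of 1683 probes of like intensity.

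Cdk6, the other partner kinase, was read by 3 probes that differed. The brightest, A_51_P489779, had log2 intensities of 11.25, 11.28 and 11.36 in labelled KO and 11.15, 11.02 and 11.12 in labelled WT. The channels did not overlap, and labelled KO was above labelled WT on every array. The log2 ratios were 0.10, 0.26 and 0.24, with a mean of 0.20 ± 0.085 (SD, n = 3; 95% interval 0.11 to 0.29; limma, adjusted p = 0.0047). The call was lost with the background model fitted on all spots (0.16, adjusted p = 0.051) and with the scanner's processed signals (0.17, adjusted p = 0.061), and the sign turned with median centring (-0.26, adjusted p = 0.089).

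The Cdk6 probes designed on its RefSeq transcript were dim. A_51_P388310 had spot signals of 61.6, 64.9 and 60.0 in labelled KO and 62.8, 67.6 and 61.5 in labelled WT, over backgrounds of 38 to 44, and was well above background in labelled WT on 2 of 3 arrays. The probe across the intron, A_52_P417489, had 78.8, 92.7 and 81.7 in labelled KO and 117, 113 and 93.9 in labelled WT. Their channels overlapped after normalization. Their mean log2 ratios were 0.055 ± 0.10 (95% interval -0.046 to 0.16, adjusted p = 0.34) and -0.047 ± 0.086 (95% interval -0.14 to 0.047, adjusted p = 0.38). The offset of 50 added in background correction exceeds the net signal of A_51_P388310 and is near that of A_52_P417489, and it draws such ratios toward 0, so differences at these probes may have been larger than the values given.

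The Cdk6 call therefore rests on the probe whose clone is not assigned to the gene by RefSeq accession. That probe exceeded A_52_P417489 by 0.15, 0.39 and 0.20 on the 3 arrays. Against Cdk4, the brightest Cdk6 probe differed by 0.027 ± 0.23 (SD, n = 3), with -0.23, 0.22 and 0.10 on the 3 arrays (exact permutation p = 1, where 0.25 is the smallest that 3 arrays can give).

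**Figure D4:**
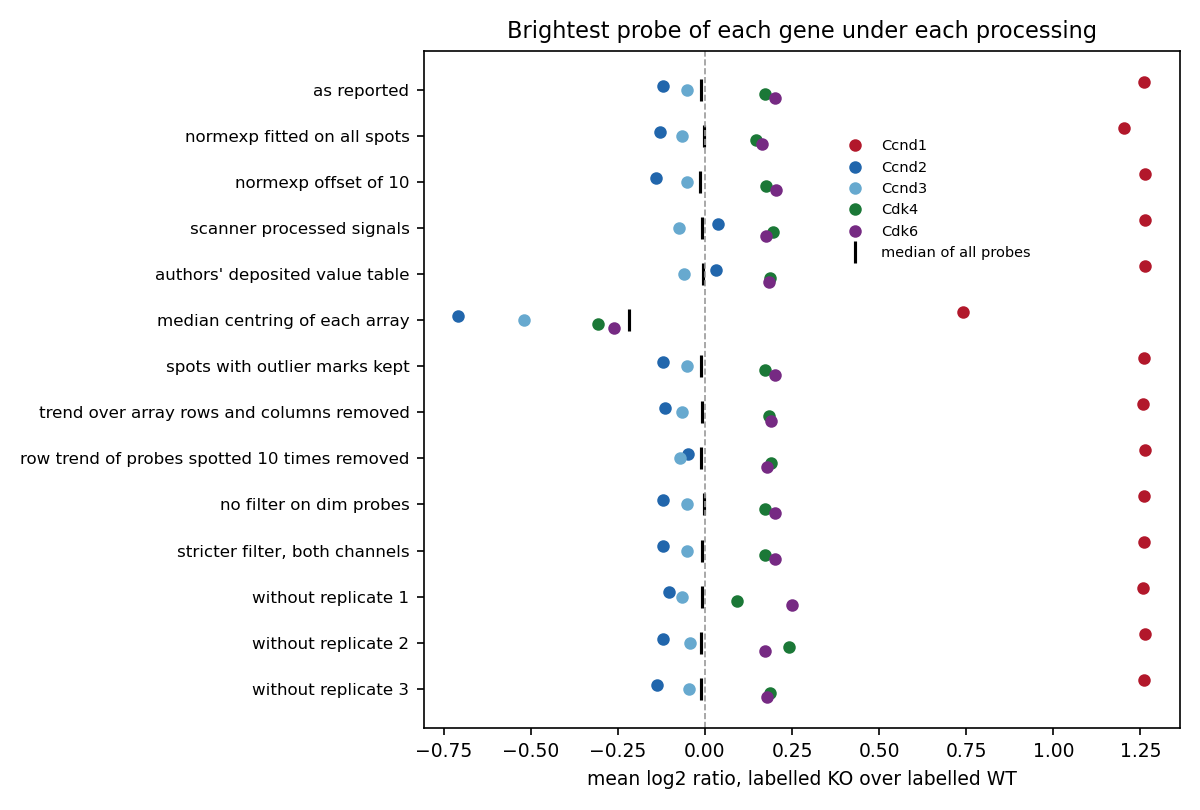
Mean ratio of labelled KO to labelled WT on the log2 scale (horizontal axis) of the brightest probe of each gene under each processing (rows), with the median of all tested probes as a black tick. Ccnd1 stays between 0.74 and 1.26 in every row, while Ccnd2, Cdk4 and Cdk6 lie on either side of 0 depending on the row.

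Of the 18033 genes measured, the 3 with log2 ratios nearest to those of Ccnd1 over the 3 arrays, by Euclidean distance, were Exoc3l4 (distance 0.038), Vax2 (0.046) and Epha2 (0.096). Their ratios were 1.27 ± 0.022, 1.28 ± 0.012 and 1.25 ± 0.070 (SD, n = 3; limma, adjusted p = 8.1e-08, 7.3e-08 and 1.8e-07). The genes were picked for these ratios, so means near that of Ccnd1 and small p-values followed from the choice. Vax2 is a homeobox factor of the ventral eye, and Epha2 is an ephrin receptor kinase. This likeness depended on the background correction: with the model fitted on all spots Ccnd1 was at 1.20, against 0.94 for Exoc3l4, 0.72 for Vax2 and 0.69 for Epha2. No other member had an absolute mean ratio of at least 0.5, so none was given neighbours.

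The surroundings of the cyclin D kinases were read from 7 gene lists with 81 genes, all tested, by the brightest probe of each gene. Of these 37 were lower in labelled KO, 11 were higher and 33 missed the threshold, with a median log2 ratio of -0.076. Over all 18033 genes 46.8% were past the threshold, 21.9% higher and 24.8% lower, with a median of -0.011. Alongside a higher Ccnd1, then, the genes downstream of the cyclin D kinases were more often lower than higher, while the inhibitors split.

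The inhibitors of Cdk4 and Cdk6 split, with 3 of 7 higher, 3 lower and 1 not past it (median -0.0046). Cdkn1a, which encodes the Cip/Kip protein p21, was at 0.98 ± 0.07 (SD, n = 3; limma, adjusted p = 6.2e-07). The Ink4 genes Cdkn2a, whose locus encodes p16 and Arf, and Cdkn2b, which encodes p15, were at 0.90 ± 0.18 (adjusted p = 1.2e-05) and 0.84 ± 0.02 (adjusted p = 6.1e-07). The largest decrease was that of Cdkn1c, which encodes p57, at -0.68 ± 0.10 (adjusted p = 9.6e-06). The 4 kept their call under each of the 13 alternatives, with Cdkn2a at 0.45 when the background model was fitted on all spots. The ratios of the 3 higher inhibitors lay below that of Ccnd1 on every array.

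The Rb family and its E2F partners, the substrates and effectors of the cyclin D kinases, had 1 of 13 higher, 9 lower and 3 not past it (median -0.23). Rb1, which encodes the retinoblastoma protein, was the higher one, at 0.56 ± 0.09 (adjusted p = 1.9e-05). It was at 0.27 with the background model fitted on all spots, and was not past the threshold with median centring (0.22, adjusted p = 0.095). The activator genes E2f2 and E2f1 were at -0.57 ± 0.06 and -0.43 ± 0.02, and the repressor gene E2f7 at -0.45 ± 0.03 (limma, adjusted p = 1.1e-05 to 2.6e-05), and E2f1 was at -0.26 with the background model fitted on all spots.

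Of the 9 genes of the cyclin E, cyclin A and Cdk2 step, which follows in the cycle, 5 were lower, 4 not past it and 0 higher (median -0.16). Ccna2, which encodes cyclin A2, was at -0.51 ± 0.03 and Skp2, part of the ligase that degrades p27, at -0.45 ± 0.12. Ccne2, which encodes cyclin E2, was at -0.23 ± 0.06 and the mitotic kinase gene Cdk1 at -0.22 ± 0.07 (limma, adjusted p = 1.1e-05 to 0.0021). Ccne2 ranged from -0.51 with median centring to -0.081 with the background model fitted on all spots. Cdk1 was not past the threshold with the scanner's processed signals (-0.16, adjusted p = 0.055) or in the authors' deposited table (-0.16, adjusted p = 0.057). Among 18 E2F target genes of S phase, 13 were lower, 5 not past it and 0 higher (median -0.16). The replication clamp gene Pcna was at -0.46 ± 0.02, the licensing inhibitor gene Gmnn at -0.32 ± 0.03, the helicase subunit gene Mcm5 at -0.27 ± 0.01 and the licensing factor gene Cdc6 at -0.22 ± 0.03 (limma, adjusted p = 1.7e-05 to 0.0010).

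Genes that activate Cdk4 and Cdk6 or help them fold were mostly not past the threshold, with 1 of 6 lower, 0 higher and a median of -0.041. The 1 was Ccnh, the cyclin of the Cdk-activating kinase, at -0.38 ± 0.02, and another Ccnh probe was past the threshold in the opposite direction. Of 10 genes of D-type cyclin turnover 2 were higher, 1 lower and 7 not past it (median 0.0055). Cryab, which encodes a small heat shock protein known as a partner of the ligase subunit Fbxo4, was at 0.71 ± 0.08 (adjusted p = 4.7e-06). Its size depended on the background correction, from 0.16 with the model fitted on all spots to 1.27 with the scanner's processed signals. Fbxo4 was at 0.23 ± 0.03, and with median centring at -0.21, which is 0.0095 relative to the median of all tested probes. Fbxo31, which encodes a ligase subunit known to mark human cyclin D1 for degradation, was at -0.23 ± 0.01, with another probe past the threshold the other way.

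The mitogenic regulators, factors and feedback genes of the pathways that drive D-type cyclin transcription, had 5 of 18 higher, 5 lower and 8 not past it (median -0.030). Tcf7l2, a nuclear effector of Wnt signals, was at -0.61 ± 0.05 (adjusted p = 5.0e-06), and Spry2, a feedback inhibitor of receptor kinases, at -0.31 ± 0.09. The immediate early genes Fos and Myc were at 0.31 ± 0.17 (adjusted p = 0.0030) and 0.30 ± 0.06 (adjusted p = 0.00034), and with median centring they were at -0.0051 and -0.17, which is 0.21 and 0.054 relative to the median of all tested probes. Fos was also not past the threshold with the background model fitted on all spots (0.12). Thus the factors upstream of the cyclins had ratios on both sides of 0, and the 4 named were smaller in absolute log2 ratio than Ccnd1.

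**Figure D5:**
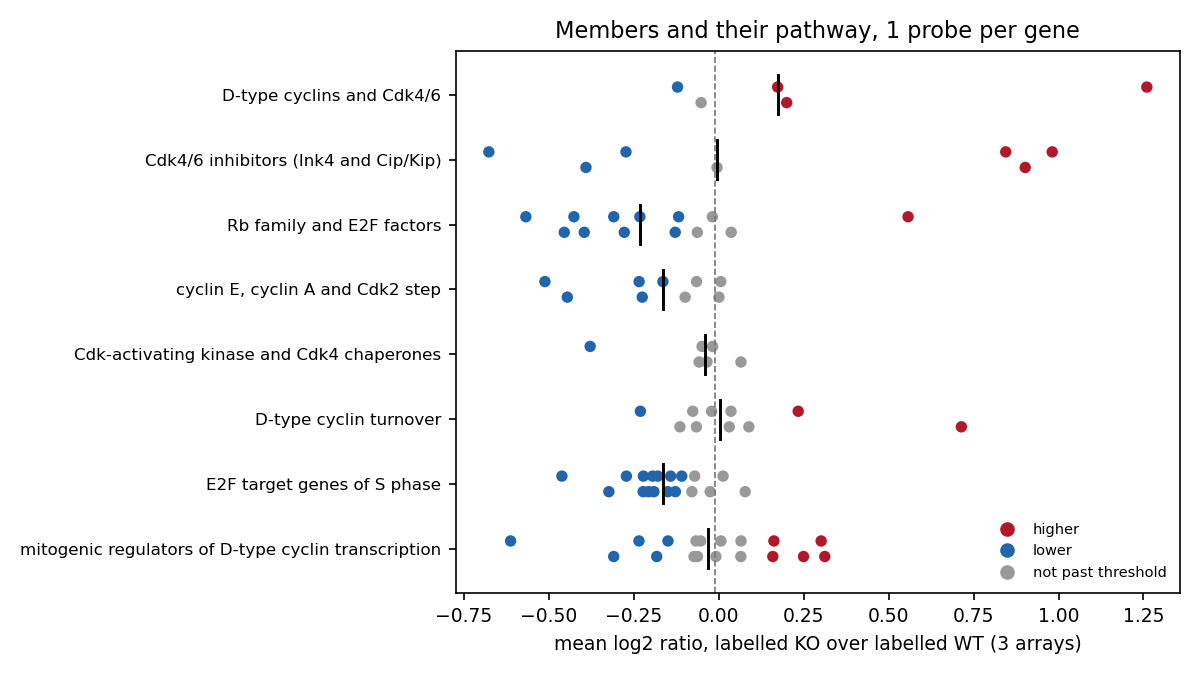
Mean ratio of labelled KO to labelled WT over 3 arrays, on the log2 scale (horizontal axis), for the 5 members and the 81 genes of 7 pathway lists, 1 point per gene by its brightest probe, coloured by call, with the median of each list as a black tick. Points of the E2F lists lie mostly left of 0 and Ccnd1 is the point farthest to the right.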

How the data were processed

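Expression of the 5 genes was measured in 3 two-colour arrays of labelled KO against labelled WT neural stem cells. Per the file headers, spots were read with Feature Extraction 9.5.3.1 from Agilent. Its deposited mean and background signals are raw intensity values, and its processed signals are intensity after background correction and dye normalization by the scanner software. The deposited log ratio is log10 of red over green, used only to check direction. The authors' deposited value table correlated with the scanner's red over green log2 ratio at -0.998, -0.996 and -0.992, so it was read as log2 of labelled KO over labelled WT. Its columns share a median of 0.0276 and the same quartiles, while the authors' centring and scaling is not given in the sources used.

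Signals were corrected with normexp (offset 50, fitted on spots without outlier marks, a fit chosen with the result of the other known), normalized by loess within arrays with controls at weight 0, signed as labelled KO over labelled WT and averaged per probe. Levels are log2 intensities per channel after loess and Aquantile normalization. Between probes they were used to choose the brightest probe, to find probes of like intensity and to sum markers. No test compared levels between probes. Of 41174 probes 26627 were tested with limma 3.58.1 in R 4.3.3 (lmFit, eBayes, two-sided, Benjamini-Hochberg, threshold 0.05). Of several probes of a gene the brightest tested one stood for it. Probes were named through RefSeq accessions (22951) or symbols (9768), and 8455 kept the file's name.

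The text names every member probe, Dnmt3a, the up to 4 list genes with the largest absolute ratio past the threshold, and the 3 genes nearest to a member with an absolute ratio of at least 0.5. The members and lists were chosen with earlier results of these data known. The channels of 1 array carry 1 replicate number each and were paired by the ratio. The alternatives were other background corrections, scalings and filters, each array left out, and 2 corrections for place on the array. In simulated data of 26627 probes, 200 of them changed, 94% of changes of 1 log2 unit and 42% of changes of 0.3 were recovered. Far more probes, 44.3%, were past the threshold in the real data, and the simulation held no dye bias or row trend. Its shares therefore do not give the recovery in this comparison. The 3 arrays shared 1 slide and 1 day of scanning, and the number of arrays limits the precision.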

Additional observations from a re-analysis of the deposited data

How the results depend on the processing

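Ccnd1 was higher and past the threshold under all 13 alternatives, at 0.74 to 1.26. With normexp fitted on all spots, 2690 probes were higher and 3670 lower, against 5517 and 6285 as reported. Of the member probes 1 was then higher and 2 lower, with Ccnd3 at -0.065, Cdk4 at 0.15 and Cdk6 A_51_P489779 at 0.16. With an offset of 10 Cdk4 was at 0.18, no longer past the threshold (adjusted p = 0.080). With the scanner's processed signals 1 member probe was higher and 0 lower, with Ccnd2 A_52_P514391 at 0.037, Cdk4 at 0.20 and Cdk6 A_51_P489779 at 0.17, and with Ccnd2 minus Ccnd3 at 0.11 and Cdk6 minus Cdk4 at -0.021. The authors' deposited table gave 0 member probes lower, Ccnd2 A_52_P514391 at 0.033, Cdk4 at 0.19, Ccnd2 minus Ccnd3 at 0.093 and Cdk6 minus Cdk4 at -0.0022. Median centring, where the all-probe median was -0.22, gave 1168 probes higher and 13081 lower, 1 member probe higher and 5 lower, and 6 pathway genes higher and 63 lower. Under it Ccnd2 A_51_P433228 was at -0.61, Ccnd2 A_52_P53906 at -0.56, Ccnd3 at -0.52, Cdk4 at -0.31, Cdk6 A_51_P489779 at -0.26, Fbxo4 at -0.21, Fos at -0.0051 and Myc at -0.17. Removing the row trend of probes spotted 10 times, an alternative chosen after seeing the data, left 0 member probes lower, with Ccnd2 A_52_P514391 at -0.049, Ccnd2 minus Ccnd3 at 0.023 and Cdk6 minus Cdk4 at -0.012. A trend over rows and columns of all spots, also chosen after seeing the data, changed no member call when removed. Without 1 replicate, 0 member probes were lower in each case, Ccnd2 A_52_P514391 was at -0.14 to -0.10, Cdk4 at 0.093 to 0.24 and Cdk6 minus Cdk4 at -0.068 to 0.16. Among 28 other named genes, 357 of 364 values under these alternatives kept direction and side of the threshold, 4 lost the call and 3 turned. The 3 were Fbxo4, Fos and Myc under median centring, at 0.0095, 0.21 and 0.054 relative to the all-probe median. The causes of these changes were not tested. The ratio within each array already pairs the channels of 1 replicate, so no further replicate block could be fitted.

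Ratios below about 0.2 for the single-spot probes of Ccnd2, Ccnd3, Cdk4 and Cdk6 depend on the background correction and on how the arrays were scaled. The Ccnd2 call was also lost with the row trend removed, and the Ccnd2 and Cdk4 calls with arrays left out. Dim probes such as Cdk6 A_51_P388310 have net signals below the offset, so their ratios are bounded toward 0.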

Other observations

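Outside the member probes, 3 probes carry descriptions that resemble Cdk6 under other names in the array files. LOC385234 was tested, at -0.037 ± 0.030 (SD, n = 3; limma, adjusted p = 0.40), and LOC667335 and AK017915 were too dim to be tested.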
